A study of Rattus norvegicus with 30 samples.

Results

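The macrophage genes described here are Cd68, Lyz2, Apoe and Arg1, 4 of the 32545 Ensembl rat gene IDs in the count table. They were chosen by ID as common markers of macrophages, the phagocytes that enter an injured nerve and clear myelin and debris: ENSRNOG00000037563 for Cd68, ENSRNOG00000005825 for Lyz2, ENSRNOG00000018454 for Apoe and ENSRNOG00000013304 for Arg1. The pairing of ID and symbol came with that choice, since neither the count table nor the gene table used here pairs Ensembl IDs with symbols. Other markers of macrophages, and markers of Schwann cells, fibroblasts and other cells of the tissue, were for the same reason not analysed here, and the label of macrophage genes could not be checked against them. All 4 genes had enough counts to be among the 16015 genes tested.

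The samples were of median nerve, a mixed nerve of the forelimb, from adult female rats of genotype WT, for which the labels name no strain. The nerve was cut to leave an 8 mm gap, and the gap was bridged by a 10 mm tube made of chitosan. The tube was placed 3 months after the cut in delayed repair and at once in immediate repair, and the tissue that had regenerated inside it was taken 7, 14 or 21 days later. Delayed repair had 5, 4 and 3 libraries at days 7, 14 and 21, immediate repair had 4, 4 and 5, and untreated healthy control nerve, which had no tube, had 5. The labels number the replicates without tying each one to a separate rat, and p-values therefore measure the spread between these samples, which may be technical.

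After a nerve is cut, macrophages from the blood join those resident in the nerve, take up myelin and handle its cholesterol. Cd68 is a glycoprotein of lysosomes and endosomes, abundant in phagocytes, and Lyz2 is lysozyme, an enzyme that cleaves bacterial cell walls. Apoe is an apolipoprotein that carries cholesterol out of cells, made by macrophages and, in the nervous system, also by glia. Arg1 is arginase, which converts arginine to ornithine, and in rodents it marks macrophages in an alternatively activated, repair-associated state.

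All 30 libraries held between 11958242 and 17334752 counts, with a median of 14858868.5. The 4 genes together took 0.997% to 4.32% of the counts in the 25 repair libraries, against 0.140% to 0.240% in the 5 control libraries. Delayed day 7 replicate 5 and immediate day 21 replicate 4 stood apart, with a median Pearson r of 0.886 and 0.909 with the other libraries of their groups (log2 CPM across tested genes), against 0.916 to 0.979 for the other 28. The 0.916 was that of immediate day 7 replicate 4, whose group mates had 0.948 to 0.965. Leaving out the 2 libraries that stood apart changed no call on the 4 genes. Without immediate day 7 replicate 4, the fall of Cd68 from day 7 to day 14 in immediate repair was not called (edgeR adjusted p = 0.0794). Levels are in CPM, each count divided by its library size after TMM scaling, and are compared between samples of a gene but not between genes, since they are not corrected for length. In tissue like this, fewer cells of a type and less RNA per cell cannot be told apart.

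All 4 genes were higher in the tube than in control nerve on every day, in both repairs. In delayed repair 4 of 4 rose at day 7, where 31.5% of all tested genes rose, at day 14, where 26.2% did, and at day 21, where 23.1% did (quasi-likelihood test of edgeR, with Benjamini-Hochberg adjustment and a threshold of 0.05). In immediate repair 4 of 4 also rose at day 7, against 30.2% of tested genes, at day 14, against 26.1%, and at day 21, against 24.8%. Every repair library lay above every control library for each of the 4 genes. Such separation in either direction was common among all tested genes: 48.9%, 54.4% and 53.4% of them in delayed repair and 56%, 51.1% and 42.4% in immediate repair, at days 7, 14 and 21. The median log2 fold change of the 4 genes was 6.05, 4.33 and 4.85 in delayed and 6.23, 4.501 and 4.52 in immediate repair, against medians over all tested genes of -0.01 and -0.08 at day 7 and of 0.02 or less in size at the later days. The same 5 control libraries serve all of these comparisons.

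**Figure D1:**
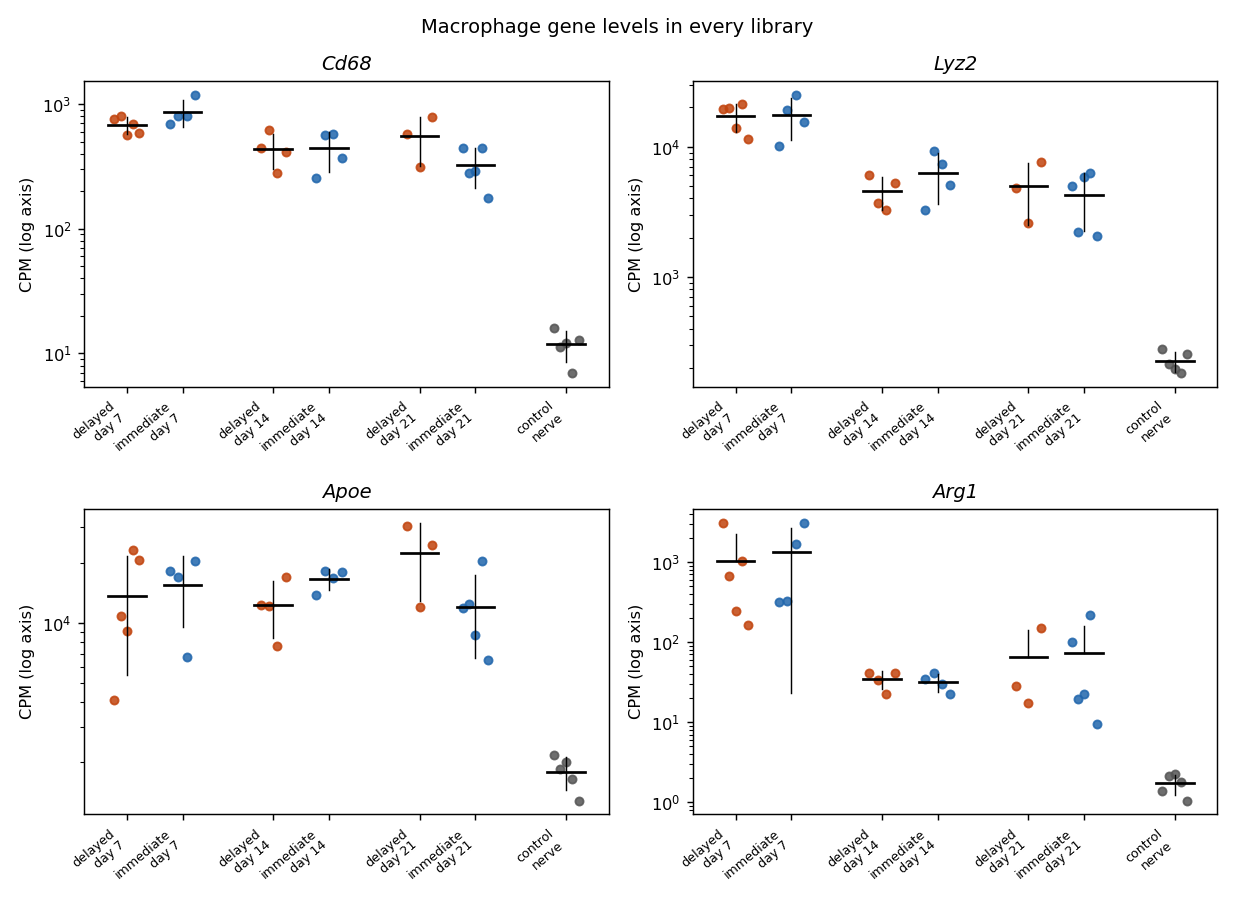
Levels in CPM (vertical, log axis), 1 point per library, for delayed and immediate repair at days 7, 14 and 21 and for control nerve. Long bars are group means and thin bars 1 SD, with the lower part left out where it would fall below 0. Control nerve lies below all repair groups, Arg1 is lower after day 7, and the Apoe groups overlap at all days.

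Cd68 was scarce in healthy nerve and rose in the tube on every day. At day 7 it measured 756, 806, 564, 695 and 587 CPM in delayed repair and 687, 801, 805 and 1183 CPM in immediate repair. At day 14 it measured 447, 618, 282 and 411 CPM in delayed repair and 257, 569, 574 and 370 CPM in immediate repair. At day 21 the values were 570, 311 and 785 CPM in delayed repair and 443, 280, 292, 443 and 177 CPM in immediate repair, and the control libraries held 16.1, 11.3, 12.0, 6.99 and 12.7 CPM. Immediate repair at day 7 was the highest group and did not overlap its own day 14 or day 21. In immediate repair, 28.3% of all tested genes did not overlap between days 7 and 14 and 28.2% between days 7 and 21, in either direction. Delayed repair overlapped between all days for Cd68. Against control nerve (11.8 ± 3.27 CPM, SD, n = 5), Cd68 was 57.6-fold higher in delayed repair at day 7 (95% interval 35.2 to 94.3, edgeR adjusted p = 1.07e-12) and 46.9-fold higher at day 21 (28.3 to 77.6, adjusted p = 1.59e-11). In immediate repair it was 73.4-fold higher at day 7 (44.2 to 122, edgeR adjusted p = 9.00e-13) and 27.6-fold higher at day 21 (17.3 to 44.2, adjusted p = 3.27e-11). At day 14 it was 37.1-fold higher in delayed and 37.4-fold higher in immediate repair (edgeR adjusted p = 1.01e-11 and 1.32e-11).

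Lyz2 was highest at day 7 and stood lower afterwards. At day 7 it measured 19302, 19749, 13999, 21083 and 11523 CPM in delayed repair and 10114, 18968, 24949 and 15474 CPM in immediate repair. At day 14 there were 6043, 3658, 3268 and 5272 CPM in delayed repair and 3268, 9284, 7412 and 5101 CPM in immediate repair. At day 21 there were 4801, 2578 and 7592 CPM in delayed repair and 5003, 2190, 5887, 6235 and 2051 CPM in immediate repair, and control nerve held 277, 215, 195, 183 and 257 CPM. No day 7 library of either repair overlapped a day 14 or day 21 library. Of all tested genes in delayed repair, 26.2% did not overlap between days 7 and 14 and 24.2% between days 7 and 21, in either direction. In immediate repair the shares were 28.3% and 28.2%. Relative to control nerve (225 ± 40.2 CPM, SD, n = 5), Lyz2 was 76.0-fold higher in delayed repair at day 7 (95% interval 41.4 to 140, edgeR adjusted p = 8.37e-12) and 22.2-fold higher at day 21 (12.4 to 39.7, adjusted p = 3.71e-09). For immediate repair the folds were 77.1 at day 7 (41.7 to 143, edgeR adjusted p = 1.08e-11) and 19.0 at day 21 (10.9 to 32.9, adjusted p = 3.01e-09). The day 14 folds were 20.2 in delayed and 27.8 in immediate repair (edgeR adjusted p = 2.21e-09 and 6.01e-10).

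The stretches upstream of Cd68 and Lyz2 are shown because the levels of these genes followed each other across libraries and because PU.1, a transcription factor of macrophages, is known to bind a GAGGAA core. Promoter windows from RefSeq (GRCr8, matched by symbol) exist here for 3 of the 4 genes, Cd68, Lyz2 and Apoe. The line for Cd68 gives the 250 bases before the gene's start and that for Lyz2 the first 231 of them, with matches on either strand to GAGGAA or to TGANTCA, the AP-1 motif, in capitals. The Cd68 window is chr10:54882442-54882691 and the printed stretch of Lyz2 chr7:54798031-54798261, both on the minus strand.
Cd68: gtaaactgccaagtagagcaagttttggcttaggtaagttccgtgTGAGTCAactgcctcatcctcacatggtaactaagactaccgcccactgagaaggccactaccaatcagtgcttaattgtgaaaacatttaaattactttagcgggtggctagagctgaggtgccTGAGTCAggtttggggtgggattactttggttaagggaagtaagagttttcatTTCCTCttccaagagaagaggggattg
Lyz2: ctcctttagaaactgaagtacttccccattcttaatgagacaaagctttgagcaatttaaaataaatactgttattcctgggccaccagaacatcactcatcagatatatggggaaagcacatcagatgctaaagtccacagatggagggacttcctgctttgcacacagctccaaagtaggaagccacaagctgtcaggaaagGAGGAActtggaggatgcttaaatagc
GAGGAA, 6 letters long, starts 46 bases before the start of Lyz2 and, on the other strand, 27 bases before that of Cd68. It is present in 23.3% of all 33469 windows of 250 bases. TGANTCA occurs at 205 and 80 bases before the start of Cd68 and in 6.34% of all windows, and was not found in the Lyz2 window. Of the 3 windows listed for Apoe, 1 held GAGGAA and none TGANTCA. The last 30 bases printed for Lyz2 lie within the RefSeq span of the gene, whose end is further upstream than the start used for the window, and the match lies among them. A match describes the letters and shows no binding.

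Lyz2 has a neighbour on the chromosome, Lyc2, another lysozyme gene. The 39 bases next to the start are identical in the windows of both, and 33.6% of all 250 positions are. The transcripts of these genes, on which reads are counted, were not compared. How the counting split reads between such genes is not given in the sources used here. The Lyz2 values may therefore hold reads of Lyc2 or lack some of their own.

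Apoe had the smallest rise of the 4 genes over control nerve on each day and in each repair, and its changes over time passed no test. At day 7 it measured 4117, 10780, 9061, 23166 and 20532 CPM in delayed repair and 18083, 16991, 6764 and 20275 CPM in immediate repair. At day 14 it measured 12296, 12082, 7623 and 17023 CPM in delayed repair and 13694, 18175, 16663 and 17874 CPM in immediate repair. At day 21 delayed repair gave 30483, 12029 and 24444 CPM and immediate repair 11864, 12417, 8703, 20464 and 6494 CPM, while control nerve gave 2164, 1854, 2006, 1643 and 1285 CPM. The repair groups all overlapped with each other, and delayed repair at day 7 had the widest spread, 5.63-fold between its lowest and highest library. Over control nerve (1791 ± 342 CPM, SD, n = 5), Apoe was 7.56-fold higher in delayed repair at day 7 (95% interval 4.25 to 13.4, edgeR adjusted p = 8.04e-07) and 12.5-fold higher at day 21 (6.65 to 23.4, adjusted p = 3.03e-07). In immediate repair the rise was 8.67-fold at day 7 (4.78 to 15.7, edgeR adjusted p = 5.06e-07) and 6.70-fold at day 21 (3.78 to 11.9, adjusted p = 3.88e-06). Day 14 gave 6.84-fold in delayed and 9.27-fold in immediate repair (edgeR adjusted p = 4.13e-06 and 6.53e-07).

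Arg1 was nearly silent in healthy nerve, rose furthest of the 4 genes at day 7 and was far lower by day 14. Day 7 levels were 3056, 666, 246, 1024 and 164 CPM in delayed repair and 311, 327, 1648 and 3086 CPM in immediate repair. Day 14 levels were 41.2, 33.4, 22.7 and 41.2 CPM in delayed repair and 34.4, 41.0, 29.6 and 22.5 CPM in immediate repair. Day 21 levels were 28.1, 17.2 and 150 CPM in delayed repair and 99.5, 19.5, 22.5, 215 and 9.52 CPM in immediate repair, against 1.39, 2.12, 2.23, 1.80 and 1.05 CPM in control nerve. The day 7 libraries of a group differed by up to 18.7-fold in delayed and 9.91-fold in immediate repair. At day 14 they kept within 1.82-fold in both, and at day 21 they spread again, with delayed replicate 3 and immediate replicates 1 and 4 above the rest.

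The rise of Arg1 over control nerve (1.72 ± 0.50 CPM, SD, n = 5) was 596-fold in delayed repair at day 7 (95% interval 118 to 3007, edgeR adjusted p = 1.43e-07) and 776-fold in immediate repair (148 to 4057, adjusted p = 1.07e-07). By log2 fold change it was rank 21 and rank 17 among the 16015 genes tested, counted from the largest rise. At day 14 it was 20.0-fold in delayed repair (5.16 to 77.5, edgeR adjusted p = 0.000469) and 18.4-fold in immediate repair (4.78 to 71.1, adjusted p = 0.000613). These intervals rest on a spread shared with the wide day 7 and day 21 groups, whereas the day 14 libraries kept within 1.82-fold. At day 21 the values were 37.7-fold (8.99 to 158, edgeR adjusted p = 0.000148) and 42.3-fold (10.6 to 169, adjusted p = 6.10e-05). The sizes depended on single libraries. Without delayed day 7 replicate 1 the day 7 rise was 303-fold in delayed repair, and without immediate day 7 replicate 4 it was 440.2-fold in immediate repair. At day 21 it was 13.1-fold without delayed replicate 3 and 21.8-fold without immediate replicate 4, and all of these passed. With limma voom its log2 fold change was 8.34 in delayed and 8.25 in immediate repair at day 7 and 4.27 and 3.97 at day 21, all called. Control libraries held 13 to 34 counts of Arg1, so these folds rest on few counts in the denominator.

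**Figure D2:**
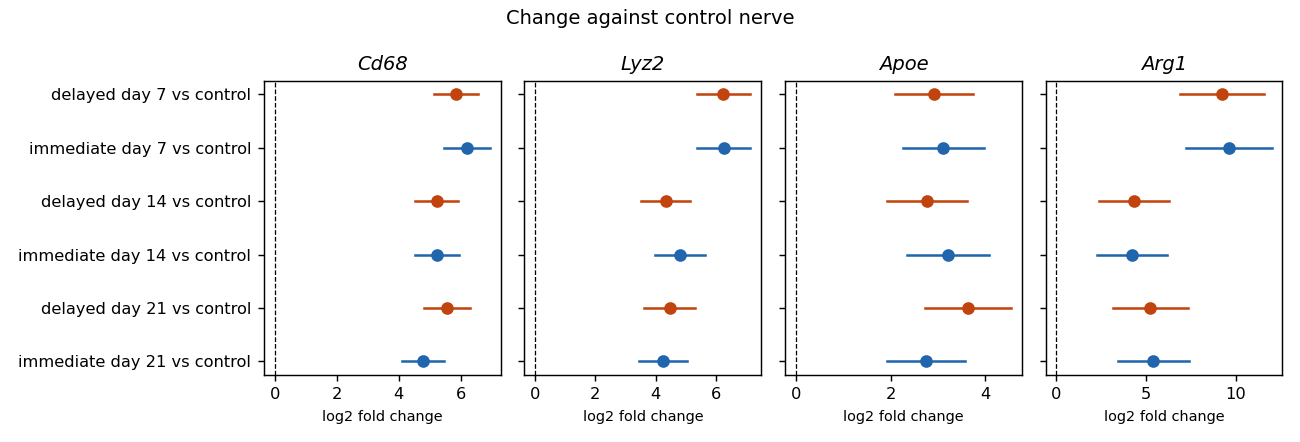
Log2 fold change against control nerve (horizontal axis), with 95% intervals, for each repair and day (rows). Filled points passed the edgeR test, and all do. Arg1 at day 7 has the largest rises, 9.22 in delayed and 9.60 in immediate repair, and the widest intervals, while Apoe stays between 2.74 and 3.64.

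The order of the groups by mean CPM differed between the genes. For Cd68 it ran from immediate day 7 through delayed day 7, delayed day 21, immediate day 14, delayed day 14 and immediate day 21 to control, and neighbours in this order overlapped except the last pair. For Lyz2 both day 7 groups led and did not overlap the next, immediate day 14, which was followed by delayed day 21, delayed day 14 and immediate day 21, all overlapping. Apoe was highest in delayed repair at day 21 and, of the repair groups, lowest in immediate repair at day 21, and only control nerve was clear of its neighbour. By median its lowest repair group was delayed day 7, at 10780 CPM. Arg1 ran by mean from the day 7 groups to both day 21 and then both day 14 groups. By median the day 21 groups, at 28.1 CPM in delayed and 22.5 CPM in immediate repair, stood under the day 14 groups, at 37.3 and 32.0 CPM. Ranges of neighbours overlapped there, also between delayed day 7, at 164 CPM and above, and immediate day 21, up to 215 CPM in the replicate 4 that stands apart. Control nerve was clear of all groups for each gene.

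The next comparison asked how the genes changed with time after the repair. At day 14 against day 7, delayed repair had 2 of 4 genes changed, Lyz2 and Arg1, both falling, where 34.7% of all tested genes changed in either direction. In immediate repair 3 of 4 changed over the same days, Cd68, Lyz2 and Arg1, again falling, where 33.7% of tested genes changed. Of the 16015 tested genes, 2661 were called lower in delayed and 2285 in immediate repair. Arg1 was 29.8-fold lower at day 14 than at day 7 in delayed repair (log2 fold change -4.90, SE 1.02, edgeR adjusted p = 0.00107) and 42.1-fold lower in immediate repair (-5.40, SE 1.06, adjusted p = 0.000524). Without delayed day 7 replicate 1 it was 15.2-fold lower in delayed repair, and without immediate day 7 replicate 4 it was 23.9-fold lower in immediate repair. Limma voom gave log2 fold changes of -3.91 and -4.24, both called. With all libraries, 0.612% and 0.175% of tested genes had a lower log2 fold change. Lyz2 was 3.76-fold lower in delayed (log2 fold change -1.91, SE 0.38, edgeR adjusted p = 0.000715) and 2.77-fold lower in immediate repair (-1.47, SE 0.39, adjusted p = 0.00515).

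Cd68 fell less over those days. It was 1.96-fold lower at day 14 than at day 7 in immediate repair (log2 fold change -0.97, SE 0.32, edgeR adjusted p = 0.0194), and the log2 fold change of -0.63 (SE 0.30) in delayed repair did not pass (adjusted p = 0.102). The immediate fall was not called without immediate day 14 replicate 1 (edgeR adjusted p = 0.0809) or 4 (0.0582), without immediate day 7 replicate 4 (0.0794), or when only these 2 groups were fitted (0.0517). Apoe gave -0.14 (SE 0.40) in delayed and 0.10 (SE 0.42) in immediate repair, with edgeR adjusted p = 0.812 and 0.884. The 95% interval of its day 14 level relative to day 7 ran from 0.513 to 1.60 in delayed and from 0.587 to 1.95 in immediate repair.

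Between day 14 and day 21 none of the 4 genes passed the edgeR test in either repair, and none had an unadjusted p under 0.05. Among all tested genes, 0% were called in delayed repair, with 620 at an unadjusted p under 0.05, 36 called by DESeq2 and 69 by limma voom. In immediate repair 0.256% were called, with 1208 at an unadjusted p under 0.05. The largest log2 fold changes of members were those of Arg1, 0.91 (SE 0.94) in delayed and 1.20 (SE 0.86) in immediate repair, and of Apoe in delayed repair, 0.86 (SE 0.45), with adjusted p = 1, 0.840 and 1. DESeq2 and limma voom also called none of the 4.

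Over the whole span, day 21 against day 7, 2 of 4 genes fell in delayed repair, Lyz2 and Arg1. Of all tested genes 26.1% changed in either direction, and 1756 of 16015 were called lower. In immediate repair Cd68, Lyz2 and Arg1 fell, 3 of 4, where 43.1% of tested genes changed in either direction and 2973 were called lower. Arg1 was 15.8-fold lower at day 21 in delayed repair (log2 fold change -3.98, SE 1.10, edgeR adjusted p = 0.0109) and 18.4-fold lower in immediate repair (-4.20, SE 0.91, adjusted p = 0.000706). The delayed fall of Arg1 was not called without delayed day 21 replicate 1 (edgeR adjusted p = 0.0612) or 2 (0.0678), or with only those groups fitted (0.0918). It was 8.04-fold without delayed day 7 replicate 1 and 45.5-fold without delayed day 21 replicate 3. The immediate fall was 10.4-fold without immediate day 7 replicate 4 and 35.6-fold without immediate day 21 replicate 4. Lyz2 was 3.43-fold lower in delayed repair (-1.78, SE 0.42, edgeR adjusted p = 0.00393) and 4.07-fold lower in immediate repair (-2.02, SE 0.36, adjusted p = 0.000116). Cd68 gave -0.30 (SE 0.33, edgeR adjusted p = 0.521) in delayed and fell by 1.41 on the log2 scale (SE 0.30, adjusted p = 0.000525) in immediate repair. Apoe measured 0.72 (SE 0.43) and -0.37 (SE 0.40), and neither passed (edgeR adjusted p = 0.210 and 0.467).

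The question of the design was whether tissue differs between delayed and immediate repair on the same day. None of the 4 genes passed the edgeR test at any day. At day 7 this stood beside 0.712% of all tested genes called, at day 14 beside 0% and at day 21 beside 0.05%. At day 14, 244 genes reached an unadjusted p under 0.05, DESeq2 called 7 and limma voom 2. None of the 4 genes had an unadjusted p under 0.05 at days 7 and 14, and 2 of 4 did at day 21. Over all 16015 tested genes, 1352 did at day 7 and 911 at day 21. DESeq2 and limma voom called 0 of 4 on each day.

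At day 7, Cd68 in delayed repair was 0.784 times its level in immediate repair, with a 95% interval of 0.515 to 1.20. The ratio was 0.986 for Lyz2 (0.591 to 1.65), 0.871 for Apoe (0.494 to 1.54) and 0.768 for Arg1 (0.235 to 2.50). At day 14 it was 0.993 for Cd68 (0.636 to 1.55), 0.728 for Lyz2 (0.424 to 1.25), 0.738 for Apoe (0.405 to 1.35) and 1.08 for Arg1 (0.308 to 3.82). The groups overlapped in all 4 genes on these days. Of all tested genes, 0.375% at day 7 and 1.9% at day 14 did not overlap between the repairs, in either direction. The intervals leave a 2-fold difference within reach for Apoe and Arg1 at day 7 and for Lyz2, Apoe and Arg1 at day 14. Each interval rests on a spread shared by all 7 groups. For Arg1 that spread takes in the wide day 7 and day 21 groups. Its day 14 libraries ran only from 22.7 to 41.2 CPM in delayed and from 22.5 to 41.0 CPM in immediate repair.

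At day 21 the means of Apoe and Cd68 were higher in delayed repair, and neither passed after adjustment. Apoe averaged 22318 ± 9409 CPM in delayed repair (SD, n = 3) and 11988.5 ± 5316 CPM in immediate repair (n = 5), a ratio of 1.86 with an interval of 1.01 to 3.42 (edgeR unadjusted p = 0.0452, adjusted p = 0.868). Cd68 averaged 555 ± 237 CPM (n = 3) and 327 ± 115 CPM (n = 5), a ratio of 1.70 with an interval of 1.08 to 2.67 (edgeR unadjusted p = 0.0239, adjusted p = 0.746). The groups overlapped in both genes, and 4.21% of all tested genes did not overlap, in either direction. With only the day 21 libraries fitted, no member had an unadjusted p under 0.05. Lyz2 gave 1.17 (0.671 to 2.03) and Arg1 0.892 (0.242 to 3.28).

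The change with time was also compared between the repairs, as an interaction of repair and day over days 7, 14 and 21. None of the 4 genes passed (edgeR F test, adjusted p = 1 for Lyz2, 0.927 for Apoe, 0.839 for Cd68 and 1 for Arg1), beside 0% of all tested genes. Over all genes 951 had an unadjusted p under 0.05, DESeq2 called 115 and limma voom 0, and no tool called a member. Of the 4, Cd68 had an unadjusted edgeR p under 0.05 (0.0492), its log2 change from day 7 to day 21 being 1.11 higher in delayed than in immediate repair. That 3 of 4 genes fell in immediate and 2 of 4 in delayed repair is therefore not a shown difference between the repairs.

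**Figure D3:**
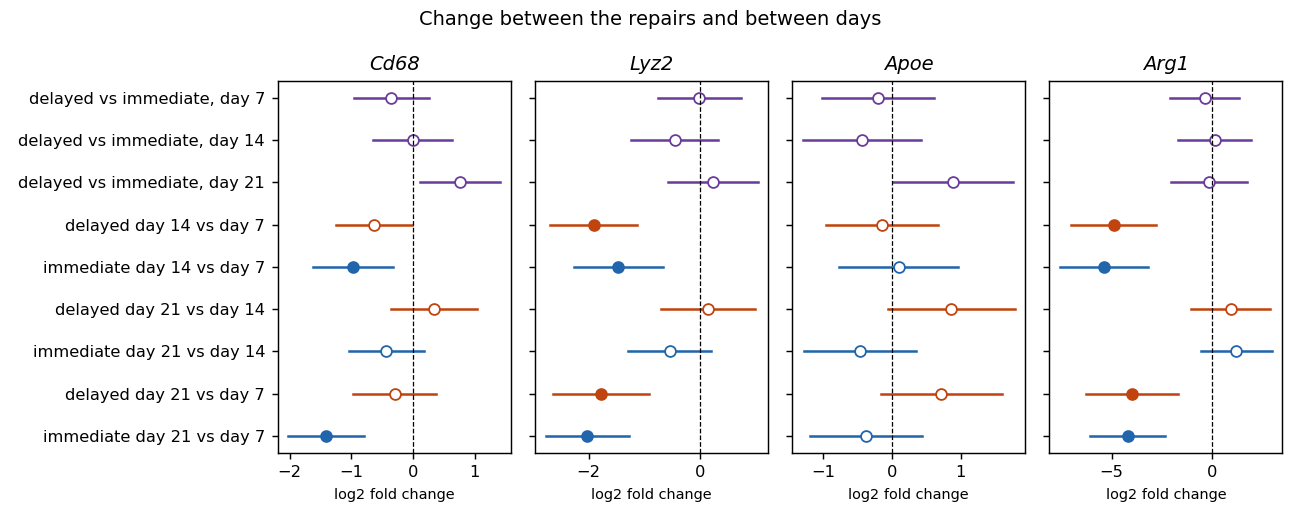
Log2 fold changes (horizontal axis, with 95% intervals) of delayed against immediate repair at each day and of the later against the earlier day within each repair (rows). Filled points passed the edgeR test. Arg1 and Lyz2 fall from day 7 in both repairs, Cd68 in immediate repair, and no point of delayed against immediate repair is filled.

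Ratios within a library show how the genes moved relative to each other, since library scaling drops out. They are a description and were not tested. The log2 ratio of Arg1 to Cd68 counts was 2.02, -0.28, -1.20, 0.56 and -1.84 in delayed repair at day 7 and -1.14, -1.29, 1.03 and 1.383 in immediate repair. Medians at day 7 were -0.28 and -0.05, at day 14 -3.54 and -3.92, and at day 21 -4.17 and -3.69, for delayed and immediate repair in turn, against -2.41 in control nerve. Day 7 libraries thus held more Arg1 per Cd68 than those of control nerve, which ran from -3.54 to -1.94, while the medians at days 14 and 21 lay near or below the low end of that range, with libraries of each later group inside it. At day 21 delayed replicate 3 (-2.38) and immediate replicates 1 (-2.16) and 4 (-1.04) stood above the others, which ran from -4.34 to -3.69. Control values rest on 13 to 34 counts of Arg1.

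The ratio of Apoe to Cd68 was higher in control nerve than in any repair library. Its median was 7.35 on the log2 scale in control nerve, where libraries ran from 6.65 to 7.87, and no repair library came above 5.74. In the tube it was lowest at day 7, with medians of 4.01 in delayed and 4.25 in immediate repair, and reached 5.28 and 5.20 at day 21. The group medians of the Lyz2 to Cd68 ratio lay between 3.07 in delayed repair at day 21 and 4.63 in delayed repair at day 7, with 4.24 in control nerve. The ratios of Apoe and Lyz2 to Cd68 were added after values had been seen.

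**Figure D4:**
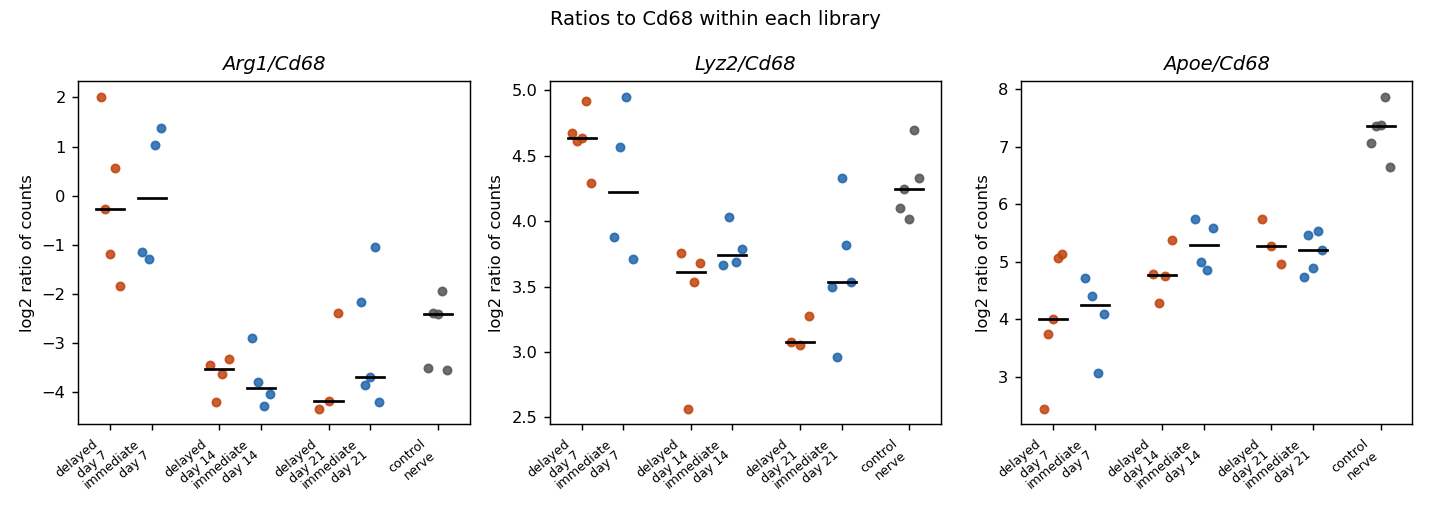
Log2 ratios of the counts of Arg1, Lyz2 and Apoe to those of Cd68 within each library (1 point per library, bars are group medians). Arg1 per Cd68 is highest at day 7 and Apoe per Cd68 is highest in control nerve, where its median is 7.35.

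Across all 30 libraries the log2 CPM of Lyz2 and Cd68 gave the highest Pearson r of the pairs, 0.960 (Spearman rho 0.908), and Lyz2 and Arg1 the highest rho, 0.932 (r 0.909). Such values over libraries are descriptions that share groups and depth, and control nerve stands far from the rest. Within the 25 repair libraries, r was 0.841 for Lyz2 and Cd68, 0.882 for Lyz2 and Arg1 and 0.808 for Cd68 and Arg1, but 0.029 for Apoe and Lyz2, 0.288 for Apoe and Cd68 and -0.061 for Apoe and Arg1. With each library taken as its deviation from the mean of its group, Lyz2 and Cd68 gave 0.726, Lyz2 and Arg1 0.605 and Cd68 and Arg1 0.601, and the 3 pairs with Apoe between 0.057 and 0.381. At day 7, delayed replicate 1, with 3056 CPM of Arg1, had the lowest Apoe of its group, and immediate replicate 3, with 1648 CPM of Arg1, the lowest Apoe of its own. Immediate replicate 4 was high in both, and delayed replicate 4, with 1024 CPM of Arg1, had the highest Apoe of its group. Over the deviations of the 9 day 7 libraries, Apoe and Arg1 gave an r of -0.453 (rho -0.417).

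**Figure D5:**
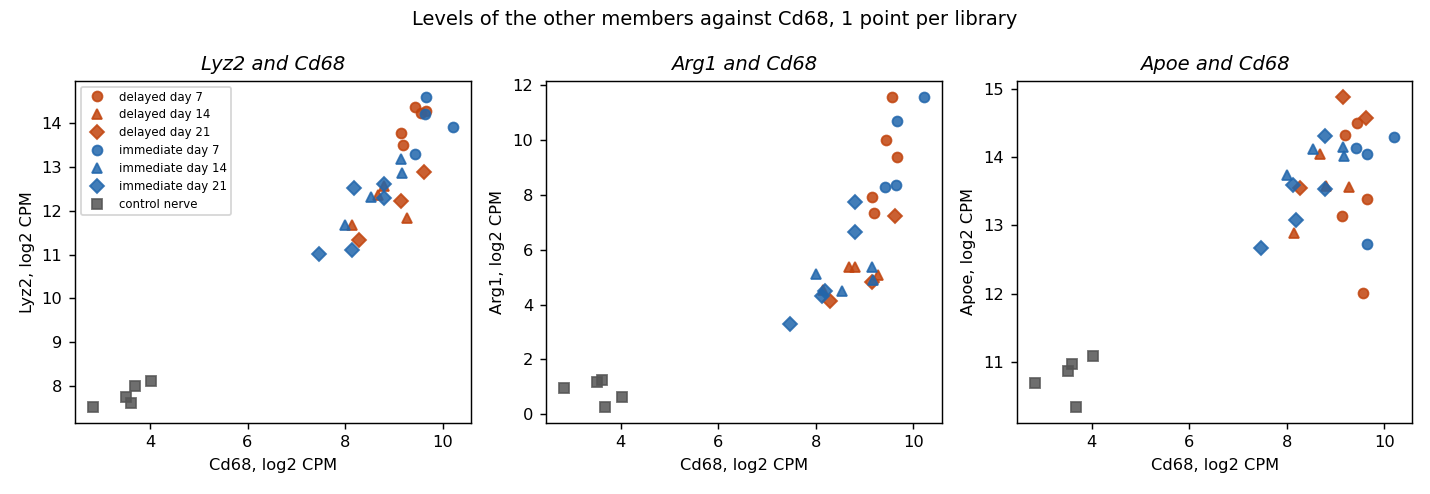
Log2 CPM of Lyz2, Arg1 and Apoe against that of Cd68, 1 point per library, colored by repair and shaped by day. Lyz2 and Arg1 follow Cd68 among the repair libraries (Pearson r of 0.841 and 0.808 over 25 libraries), and Apoe does so less (0.288).

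Among the 12472 genes whose log2 CPM averaged 1 or more, 707 reached an r of 0.9 with Lyz2 over the 30 libraries, 615 with Cd68, 454 with Arg1 and 28 with Apoe. Ranked by likeness to Lyz2, Cd68 came at 179, Arg1 at 636 and Apoe at 1734. The gene most like Lyz2 was ENSRNOG00000003622 (r of 0.992, n = 30 libraries), with 3261 ± 1007 CPM in delayed and 3431 ± 1319 CPM in immediate repair at day 7 (SD, n = 5 and 4) and 31.5 ± 9.25 CPM in control nerve (n = 5). The gene most like Cd68 was ENSRNOG00000026235 (r of 0.988), with 337 ± 121 and 363 ± 96.5 CPM against 0.858 ± 0.310 CPM in the same groups. Neither ID is paired with a symbol here.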

How the data were processed

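Per the labels' protocols, poly(T)-captured RNA (400 ng, integrity number above 6) was sequenced without strand marking, so overlapping and antisense genes cannot be told apart. The authors deposited whole-number counts of reads for each gene and library. HISAT2 (2.0.5), featureCounts (version 1.5.0-p3) and DESeq2 (version 1.38.3) are named, without their use, per the submitters' processing notes. The genome build was not given in the sources used here. The gene table used here holds 0 Ensembl IDs.

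The 4 genes, the comparisons and the alternatives were chosen with earlier results of these data known. The test was that of edgeR 4.0.16 (R 4.3.3): filterByExpr by group (minimum count 10, 16015 genes kept), TMM scaling, 1 robust quasi-likelihood fit of 7 groups over 30 libraries, and Benjamini-Hochberg adjustment over all tested genes of each comparison (threshold 0.05). Groups of unlike spread thus share 1 estimate of it. Standard errors were taken from the test statistic. Log2 CPM used a prior count of 2, and ratios added 0.5 counts. The test was tested on simulated data. No replicates agreed within sampling noise (51 pairs, chi-square over its degrees of freedom at least 15.2). Alternatives were DESeq2 1.42.0, limma 3.58.1 voom with quality weights, relative log expression scaling, no filter, only the compared groups, the replicate block and leaving out libraries. Scaling to total counts was added after seeing the data. Named were the 4 genes and the IDs of the nearest gene by Pearson r to the 2 genes with the highest r. Marker lists prepared by symbol were not used.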

Additional observations from a re-analysis of the deposited data

How the results depend on the processing

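The rises of the 4 genes over control nerve passed under all alternatives and with any compared library left out (412 values, highest adjusted p = 0.0043). No member was called for delayed against immediate repair (lowest adjusted p = 0.189 over 196 values) or for the interaction (0.566 over 132). With only the compared groups fitted, the lower Cd68 at day 14 than at day 7 in immediate repair (-0.999) and the lower Arg1 at day 21 than at day 7 in delayed repair (-4.02) were not called. The cause was not tested.

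Among log2 fold changes that passed no test, several changed sign. Delayed against immediate repair at day 7 gave 0.081 for Lyz2 with the replicate block and 0.093 without the pair of libraries that stand apart, and 0.086 for Arg1 with voom. At day 14 Arg1 gave -0.020 with the block and Cd68 0.13 with voom. At day 21 Arg1 gave 0.12 with the block, 0.30 with voom and 0.79 without the pair that stands apart. From day 7 to day 14 of delayed repair Apoe gave 0.057 without that pair and 0.16 with voom. From day 14 to day 21, voom gave -0.15 for Lyz2 and -0.16 for Arg1 in delayed and -0.045 for Arg1 in immediate repair.

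Leaving out 1 compared library at a time gave these ranges of log2 fold change where the sign or a call changed. Delayed against immediate repair ran at day 7 from -0.21 to 0.21 for Lyz2, -0.48 to 0.033 for Apoe and -1.35 to 0.44 for Arg1. It ran at day 14 from -0.22 to 0.15 for Cd68 and -0.018 to 0.27 for Arg1, and at day 21 from -0.21 to 0.54 for Lyz2 and -1.69 to 0.79 for Arg1. Day 14 against day 7 ran from -0.15 to 0.25 for Apoe and -1.12 to -0.78 for Cd68 in immediate repair and from -0.37 to 0.14 for Apoe in delayed repair. In delayed repair day 21 against day 14 ran from -0.30 to 0.44 for Lyz2 and -0.61 to 1.37 for Arg1, and day 21 against day 7 from -5.51 to -3.01 for Arg1.

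Counts of called genes varied more. For delayed against immediate repair they ran from 0 to 360 at day 7 (114 as reported), 0 to 7 at day 14 (0) and 0 to 57 at day 21 (8). For day 21 against day 14 they ran from 0 to 294 (41) in immediate and 0 to 69 (0) in delayed repair, and for the interaction from 0 to 115 (0). With only the compared groups fitted, 3021 genes (5404) were called for day 14 against day 7 in immediate and 3347 (5557) in delayed repair, and 983 (4179) for day 21 against day 7 in delayed repair. The 4179 became 2421 or 1934 without delayed day 21 replicate 1 or 2. Scaling to total counts moved the median log2 fold change of all genes most for day 21 of immediate repair, to 0.213 (0.0192) against control and to 0.262 (0.0673) against day 7. The share of rises among calls became 66.1% (52.1%) and 71.9% (56.9%) there, and 70.9% (57.7%) in immediate and 67.1% (52.1%) in delayed repair for day 14 against day 7. Across the comparisons, the numbers of the replicates did not pair the samples (correlations of deviations of -0.66 to 0.41 over 58 pairs). Delayed against immediate repair at day 14 came closest to a pairing. There the 4 correlations ran from 0.084 to 0.41, and 3 of 4 libraries were most like the one of their own number. The replicate block changed no member's call. It left 0 genes called for delayed against immediate repair at days 7 and 21 and moved Arg1 in immediate repair against control to 8.88 at day 7 and 4.78 at day 21. Without control nerve, Pearson r went to 0.029 for Lyz2 and Apoe, 0.288 for Apoe and Cd68, 0.841 for Lyz2 and Cd68 and -0.061 for Apoe and Arg1. By Dixon's test at the 95% level, none of 30 groups of 4 or 5 values (gene levels and Arg1 to Cd68 ratios) held an outlier. Libraries that stood apart did so across all genes. Depth limits Arg1 in control nerve most.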
